A study of Homo sapiens with 12 samples.

Results

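The 9 genes described here write, copy, read or remove methylation of cytosine in DNA: UHRF1, UHRF2, DNMT1, DNMT3A, DNMT3B, TET1, TET2, TET3 and MBD2. They were taken by symbol from the 60675 genes listed for every library, and all 9 passed the filter on low counts in each fit. UHRF1 had already been seen to be much higher under either inhibitor alone in C4-2 cells, and the set was chosen by that measured rise in the counts of the same libraries. Its levels against R1881 under namoline alone and TCE-5002 alone are therefore given as a description, and no test is reported for any member in those 2 contrasts. For UHRF1 itself no test is given in any comparison that holds C4-2 libraries, since they chose it. Its values there are descriptions, and the other 8 members are the ones counted.

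Polyadenylated RNA was measured by paired-end sequencing in 12 libraries from human prostate cancer cells. C4-2, a castration-resistant derivative of the LNCaP line, was given for 72 h the synthetic androgen R1881 at 1 nM with vehicle, R1881 with namoline (50 µM, an inhibitor of the histone demethylase KDM1A), R1881 with TCE-5002 (an inhibitor of the histone demethylase KDM7A), or R1881 with both. LNCaP, the androgen-dependent parent line, was given R1881 with vehicle or R1881 with both inhibitors, so every library carried R1881 and the 6 groups held 2 libraries each. The design text lists TCE-5002 at 100 µM, whereas the study's methods give a different dose, so the dose is not settled. The study describes TCE-5002 as also targeting KDM7B (PHF8) and KDM2A. Each line is a single long-established culture in charcoal-stripped serum, and there was no library without R1881.

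The 12 libraries held between 14791602 and 20690819 counts. A pair of facts bears on the LNCaP samples. The count column of LNCaP combination replicate 1 names namoline but not TCE-5002, in contrast to its title, so LNCaP results are also given without it. The libraries labelled LNCaP were low in the sum of luminal prostate markers (summed CPM of 10 genes from 889 to 968 with R1881 alone, against 3760 to 3848 in C4-2) and high in mesenchymal markers (8 genes, 949.99 to 1035 against 32.2 to 32.6). Of the 10 luminal genes, 9 were higher and 1 lower in C4-2 with R1881. KLK3 went against the sum, with a mean of 380 CPM in the libraries labelled LNCaP and 215 CPM in C4-2. CPM is each count as a share of its library, scaled to a fixed total and by TMM across the 12 libraries. Of the basal markers, 3 of 3 were too low to be tested. Because of the marker levels the samples are called the libraries labelled LNCaP. The second limit concerns TCE-5002 in C4-2, where 51 of 9897 genes above 10 CPM differed 2-fold or more between replicates, against 0 to 4 genes in the other 5 groups.

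Methylation of cytosine in CpG dinucleotides is laid down on new sites by DNMT3A and DNMT3B and is copied onto the daughter strand after DNA replication by DNMT1. UHRF1 binds the hemimethylated CpG left by replication and brings DNMT1 to it, and UHRF2 is its paralogue. TET1, TET2 and TET3 are dioxygenases that oxidise methylcytosine as the first step of its removal, and MBD2 binds methylated CpG and belongs to the NuRD deacetylase complex. In prostate cancer, promoter methylation of genes such as GSTP1 is among the most frequent changes known.

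The start regions of UHRF1 and DNMT1 are shown because both varied with genes of the G1/S transition in C4-2, and that of UHRF2 is set beside its paralogue. Each window runs from 250 bases before a transcription start to 30 bases after it, 5′ to 3′ on the gene's strand, from RefSeq for build GRCh38.p14. Capitals mark a match to the E2F consensus, searched on both strands as TTTCCCGC, TTTCGCGC, TTTGCCGC and TTTGGCGC. E2F factors are known as activators of S-phase genes.
UHRF1 start 1 (chr19:4909251-4909530, plus strand): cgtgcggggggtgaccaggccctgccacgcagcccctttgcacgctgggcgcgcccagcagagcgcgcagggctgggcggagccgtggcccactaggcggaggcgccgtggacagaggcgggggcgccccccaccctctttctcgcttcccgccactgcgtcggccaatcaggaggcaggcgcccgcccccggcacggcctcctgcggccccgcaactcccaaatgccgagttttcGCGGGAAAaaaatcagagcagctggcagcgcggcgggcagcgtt
UHRF1 start 2 (chr19:4909894-4910173, plus strand): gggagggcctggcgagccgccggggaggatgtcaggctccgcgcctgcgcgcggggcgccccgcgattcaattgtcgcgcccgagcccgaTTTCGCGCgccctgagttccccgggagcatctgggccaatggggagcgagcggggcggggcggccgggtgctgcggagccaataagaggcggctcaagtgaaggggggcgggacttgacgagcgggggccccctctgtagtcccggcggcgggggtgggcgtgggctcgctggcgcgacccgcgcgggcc
DNMT1 (chr19:10194924-10195203, minus strand): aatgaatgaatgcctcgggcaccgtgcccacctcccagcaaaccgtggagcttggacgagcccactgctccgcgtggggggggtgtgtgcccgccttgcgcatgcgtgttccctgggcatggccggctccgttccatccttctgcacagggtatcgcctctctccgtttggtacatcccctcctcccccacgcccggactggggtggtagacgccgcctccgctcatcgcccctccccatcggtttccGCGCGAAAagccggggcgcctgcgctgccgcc
UHRF2 (chr9:6412949-6413228, plus strand): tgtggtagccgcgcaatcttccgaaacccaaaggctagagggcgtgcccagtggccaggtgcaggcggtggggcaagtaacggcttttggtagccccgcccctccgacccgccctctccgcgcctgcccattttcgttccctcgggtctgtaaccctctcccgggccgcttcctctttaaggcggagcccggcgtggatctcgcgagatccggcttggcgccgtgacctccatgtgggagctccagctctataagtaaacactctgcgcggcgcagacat
The match lies 14 bases before UHRF1 start 1, on the strand opposite to the gene. At start 2 it lies 160 bases before the start, and in DNMT1 it begins 2 bases before the start. UHRF2 holds none of the 4 strings in this window, nor does the third UHRF1 start or any listed start of DNMT3A, DNMT3B, TET1, TET2, TET3 or MBD2. Of 27305 genes, 3.82% held a match at any listed start, and of the G1/S genes described below 14 of the 21 with an entry did. The windows of UHRF1 held between 32 and 45 CpG dinucleotides, that of DNMT1 27 and that of UHRF2 26, against a median of 13 over all windows. A match to these letters is a description of the sequence and no evidence that a factor binds it.

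UHRF1 was almost silent in C4-2 with R1881 alone and abundant in the libraries labelled LNCaP. Its level in C4-2 with R1881 was 1.64 and 1.60 CPM (35 and 25 counts). With TCE-5002 it was 9.25 and 11.6 CPM, and with namoline 24.04 and 32.4 CPM. With both inhibitors together it was only 4.43 and 4.34 CPM, so the combination sat below either agent alone. No group overlapped its neighbour in this order. In the libraries labelled LNCaP the levels were 103 and 89.8 CPM with R1881 and 73.7 and 56.3 CPM with the combination. The gene occupies 4903080 to 4962154 on the plus strand of chromosome 19 in the annotation of the files, with 5145 exonic bases.

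**Figure D1:**
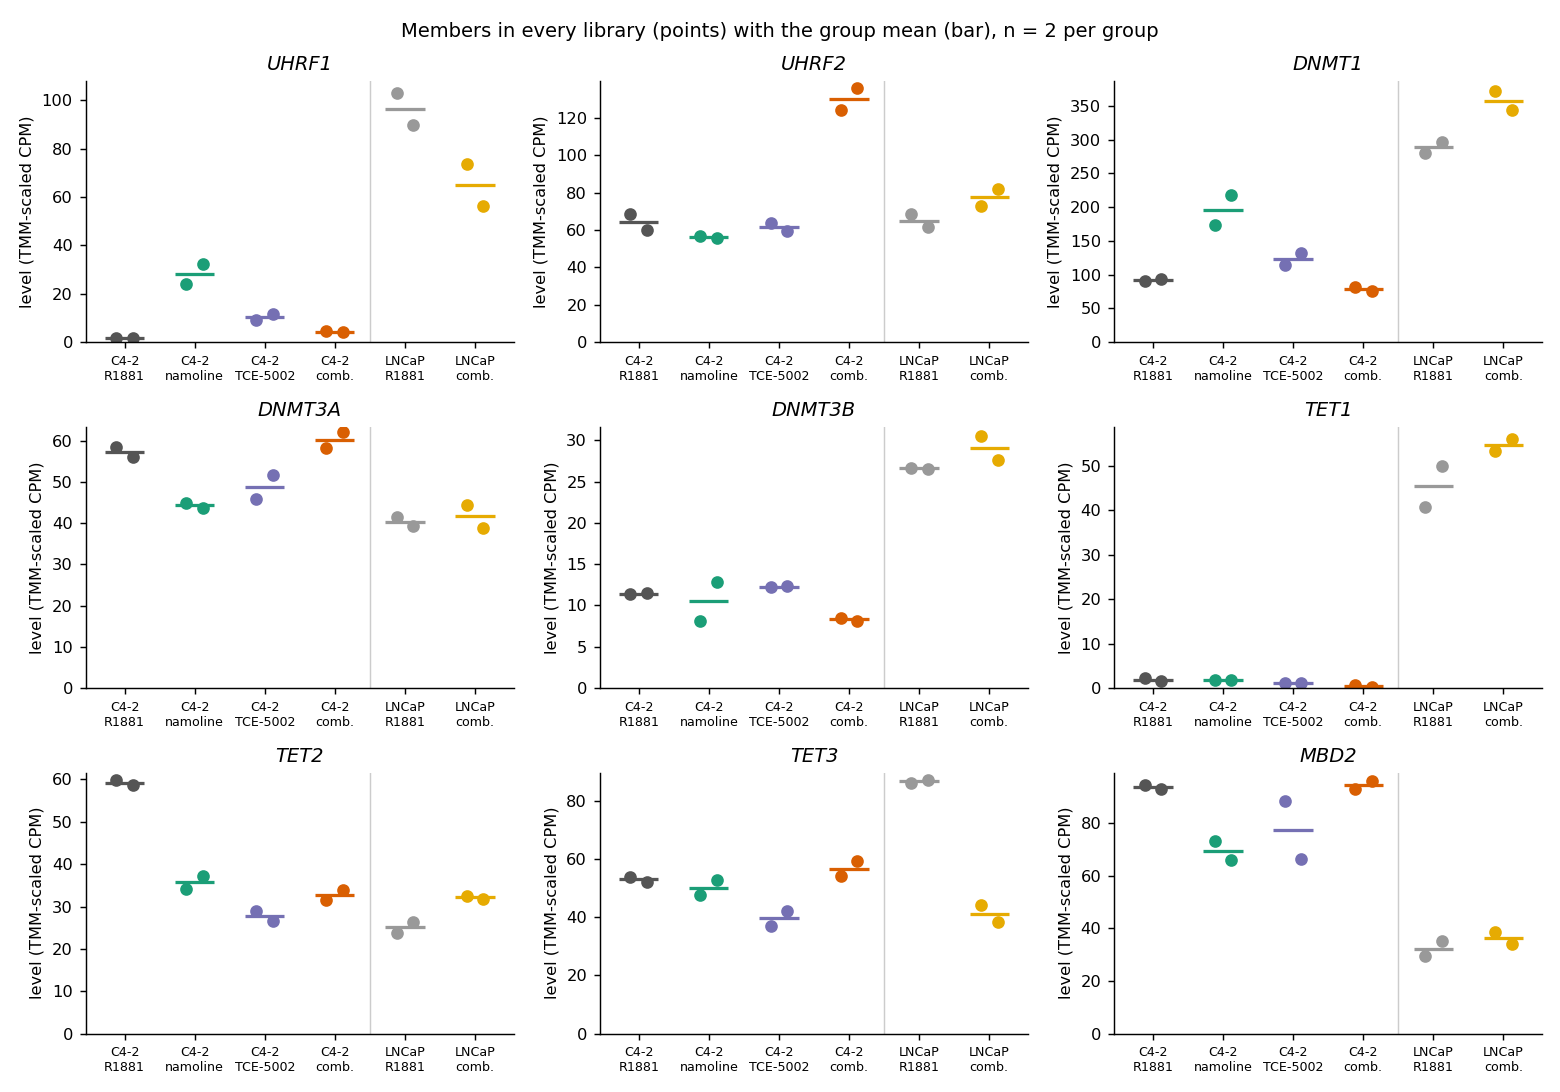
Levels of the 9 genes (TMM-scaled CPM, linear axes from 0) in each of the 12 libraries by treatment and line, with points for libraries and bars for group means (n = 2). UHRF1 stands at about 1.62 CPM in C4-2 with R1881, 28.2 with namoline, 10.4 with TCE-5002, 4.39 with the combination and 96.4 in the libraries labelled LNCaP with R1881.

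Against R1881 alone in C4-2, the log2 difference of UHRF1 was 4.09 ± 0.23 (SE) with namoline and 2.66 ± 0.23 with TCE-5002. These correspond to 17.1-fold and 6.33-fold, and they placed UHRF1 at ranks 13 and 77 from the top of 17702 genes. DNMT1 stood at 1.06 ± 0.13 with namoline and 0.39 ± 0.13 with TCE-5002 on the same scale. TET2 lay lower with both, at -0.75 ± 0.12 and -1.12 ± 0.12. UHRF2 lay near its level with R1881 under either agent, at -0.21 ± 0.11 and -0.09 ± 0.11. DNMT3A stood at -0.39 ± 0.12 and -0.25 ± 0.12, and DNMT3B at -0.14 ± 0.19 and 0.08 ± 0.19. TET1 stood at -0.11 ± 0.35 and -0.69 ± 0.36, TET3 at -0.10 ± 0.12 and -0.44 ± 0.12, and MBD2 at -0.45 ± 0.13 and -0.30 ± 0.13. A gene with an adjusted p under 0.05 is termed called here, and 35% and 36.5% of all genes were called in these contrasts. No count of called members is given for them, since the set was chosen with these contrasts in view.

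**Figure D2:**
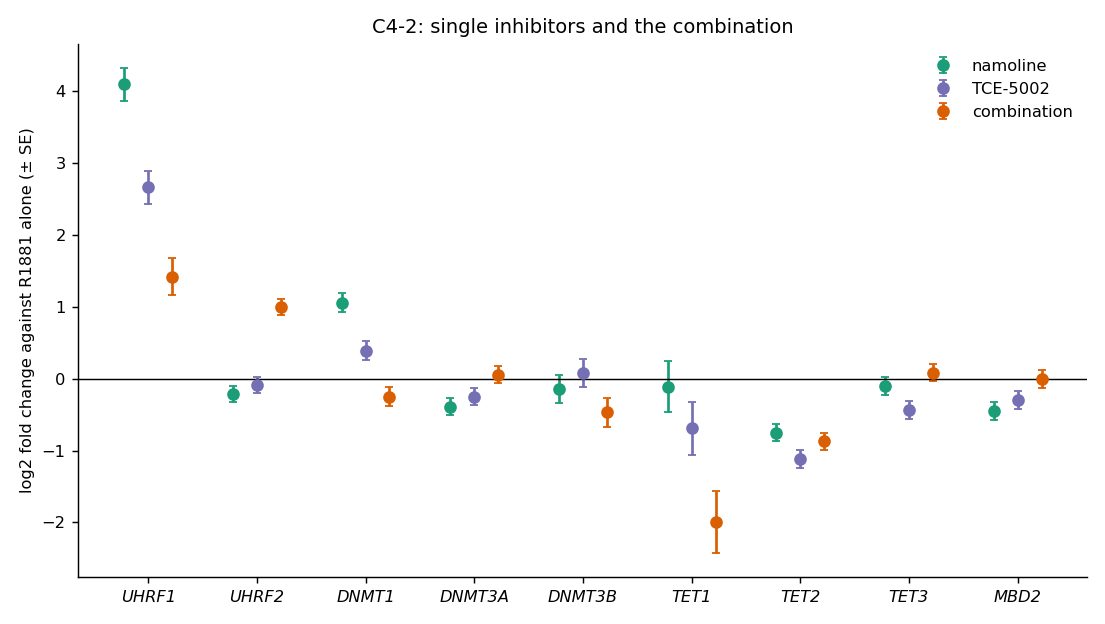
Log2 fold change against R1881 alone in C4-2 (± SE) for the 9 genes with namoline, TCE-5002 and the combination. UHRF1 falls from 4.09 with namoline to 2.66 with TCE-5002 and 1.42 with the combination, whereas UHRF2 stands at 1.00 with the combination and at -0.21 and -0.09 with the single agents.

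In C4-2 the combination raised UHRF2 and lowered TET1 and TET2. UHRF1 stood 1.42 ± 0.26 higher on the log2 scale (2.68-fold), without a test because this contrast shares its R1881 libraries with those that chose the set. UHRF2 rose by 1.00 ± 0.11 (adjusted p = 6.1e-06), from 68.7 and 59.9 CPM to 124 and 136 CPM. DNMT1, at 90.8 and 94.0 CPM with R1881 and 81.4 and 75.1 CPM with the combination, differed by -0.25 ± 0.13 (adjusted p = 0.122), which passed when only the 4 libraries compared were fitted (adjusted p = 0.00384). TET1 fell by 1.99 ± 0.43 (adjusted p = 0.00148) from 2.20 and 1.47 CPM to 0.609 and 0.310 CPM, the latter resting on 11 and 5 counts. TET2 fell by 0.87 ± 0.12 (adjusted p = 3.6e-05), from 59.8 and 58.6 CPM to 31.4 and 33.9 CPM. The groups of UHRF1, UHRF2, TET1 and TET2 did not overlap, and neither did those of DNMT1, DNMT3B and TET3, which were not called. The share of all genes without overlap was not counted, so nothing is read from the lack of overlap.

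The other members did not pass. DNMT3A stood at 58.4 and 56.2 CPM with R1881 and 58.2 and 62.2 CPM with the combination, DNMT3B at 11.4 and 11.5 against 8.53 and 8.13 CPM. For DNMT3B the difference was -0.47 ± 0.20 with adjusted p = 0.0616, and it passed in 4 alternatives (adjusted p from 0.00686 to 0.0467). TET3 (0.08 ± 0.12) and MBD2 (0.00 ± 0.13 to 2 decimals) lay close to R1881. Of 8 members tested, 1 rose, 2 fell and 5 did not pass, beside 50.3% of 17702 genes called, 24.8% higher and 25.6% lower. The median of all 9 members was 0.00 and that of all genes -0.03.

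Set against either agent alone, the combination left UHRF2 higher, by 1.22 ± 0.11 against namoline (adjusted p = 6.3e-07) and by 1.09 ± 0.11 against TCE-5002 (adjusted p = 1.8e-06). DNMT1 went the other way, lower by -1.31 ± 0.13 (adjusted p = 1.2e-06) and -0.64 ± 0.13 (adjusted p = 0.000721). Its levels were 173 and 218 CPM with namoline, 114 and 132 CPM with TCE-5002 and 81.4 and 75.1 CPM with both, with no overlap. TET1 was lower by -1.88 ± 0.44 (adjusted p = 0.00204) and -1.30 ± 0.46 (adjusted p = 0.0254), and DNMT3A higher by 0.45 ± 0.12 (adjusted p = 0.00461) and 0.31 ± 0.12 (adjusted p = 0.0352). The calls against TCE-5002 were lost in 3 alternatives for TET1 and 5 for DNMT3A. For UHRF1, described only, the differences were -2.67 ± 0.20 and -1.24 ± 0.20. Of 8 members tested, 5 were called against namoline and 6 against TCE-5002, beside 55.9% and 55.1% of all genes.

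Whether the inhibitors act additively on the log2 scale was tested for 8 members. The combination minus the sum of the single effects was 1.30 ± 0.16 for UHRF2 (adjusted p = 8.7e-06) and -1.70 ± 0.18 for DNMT1 (adjusted p = 2.6e-06). It was positive for TET2 (1.00 ± 0.17, adjusted p = 0.000172), DNMT3A (0.70 ± 0.17, adjusted p = 0.00244), MBD2 (0.75 ± 0.18, adjusted p = 0.00326) and TET3 (0.62 ± 0.17, adjusted p = 0.00693). TET2 thus fell less under both agents than their separate differences add up to. DNMT3B (-0.41 ± 0.28, adjusted p = 0.232) and TET1 (-1.19 ± 0.58, adjusted p = 0.0964) did not pass. The value for UHRF1 was -5.33 ± 0.31, without a test because it holds the single-agent contrasts. In this fit 6 of 8 members were called, beside 53.5% of all genes.

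In the direct comparison of the inhibitors 2 of 8 members were called, beside 18.2% of all genes. DNMT1 was 1.59-fold higher with namoline than with TCE-5002 (log2 0.67 ± 0.13, adjusted p = 0.00281). TET2 was higher by 0.37 ± 0.12 with adjusted p = 0.0481, a call that was lost in 7 alternatives. The remaining 6 members, with differences from -0.23 to 0.58, did not pass. Without namoline replicate 2 neither DNMT1 (adjusted p = 0.0863) nor TET2 (adjusted p = 0.345) was called. UHRF1, described only, was 2.70-fold higher with namoline (1.43 ± 0.18).

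The level of UHRF1 was set beside that of other genes over the 8 C4-2 libraries. The 5 protein-coding genes most like it, by Pearson r of log2(CPM + 0.5) among 1220 genes with a range of at least 2, were MCM5 (r = 0.992), LRP8 (0.990), E2F2 (0.989), RAD54L (0.987) and DTL (0.984). MCM5 is a subunit of the replicative helicase, and RAD54L acts in homologous recombination. DTL directs a ubiquitin ligase at sites of replication, E2F2 is a transcription factor of G1/S and LRP8 is a lipoprotein receptor. The r of UHRF1 with DNMT1 was 0.875, with MBD2 -0.846 and with DNMT3A -0.843. These describe 4 treatments in pairs of libraries, so the 8 points are not independent, and the rise with the single agents that chose UHRF1 enters every one of these values.

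The G1/S list of 24 genes (MCM2 to MCM7, CDC6, CDT1, E2F1 and others) had medians in the same order of treatments as the levels of UHRF1. All 24 stood higher with namoline (median log2 2.19) and with TCE-5002 (median 1.05) than with R1881. Of 17702 genes, 3318 and 3514 were called higher in these contrasts. Nothing is read from the counts under the single agents, since the set was chosen with these contrasts in view. With the combination 14 rose, none fell and 10 did not pass (median 0.56, all genes -0.03). Beside these counts, 24.8% of all genes were called higher and 25.6% lower. SLBP, the histone mRNA binding protein, rose by 1.44 ± 0.13 (adjusted p = 1e-06) and CLSPN, a checkpoint mediator, by 1.38 ± 0.22 (adjusted p = 0.000143). Against namoline alone the combination left 22 of the 24 lower and 1 higher, and against TCE-5002 alone 15 lower and 1 higher, with 8 not called. Of 17702 genes, 5142 and 5075 were called lower in these comparisons, and 4753 and 4674 higher. The correlation of UHRF1 with the list's median was 0.973, and that of DNMT1 was 0.951. Both are descriptions, since the libraries in which UHRF1 was seen to rise enter them. MCM5, E2F2 and DTL, named above as most like UHRF1, belong to this list.

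The G2/M list was taken as a second view of the cell cycle. With the combination 11 of its 12 genes fell and 1 did not pass (median -1.64), among them CENPF, a kinetochore protein, by 2.64 ± 0.23 and PLK1, a mitotic kinase, by 2.22 ± 0.23. Over all 17702 genes tested, 25.6% were called lower and 24.8% higher in this contrast. The correlation of UHRF1 with this list's median was 0.177. A shift in how many cells are in S phase and a shift in RNA per cell cannot be told apart in bulk RNA, and the part of the cell cycle lists in the UHRF1 result was not tested.

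**Figure D3:**
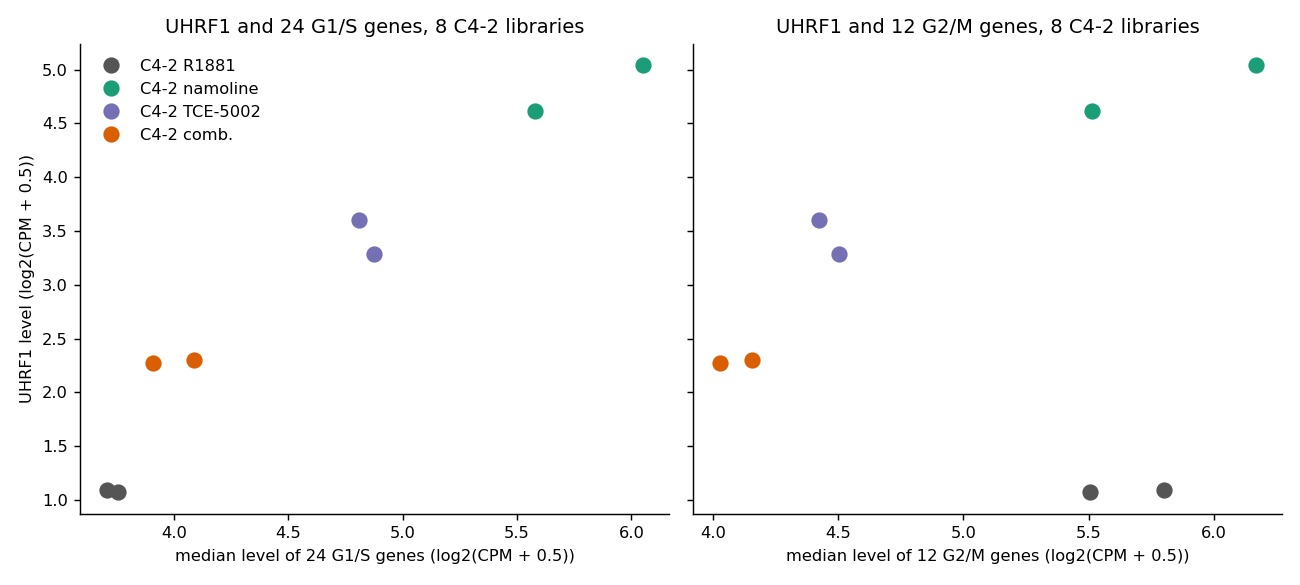
UHRF1 level against the median of 24 G1/S genes (left) and of 12 G2/M genes (right) in the 8 C4-2 libraries, log2(CPM + 0.5) on both axes, with points coloured by treatment. UHRF1 and the G1/S median rise together (r = 0.973), whereas the R1881 libraries have high G2/M levels and the lowest UHRF1 (r = 0.177).

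The other genes of maintenance methylation were counted as a list of 10, of which 9 were tested. In C4-2 with the combination 6 rose, none fell and 3 did not pass (median 0.39), beside 24.8% of all genes called higher and 25.6% lower. LIG1, the ligase that joins Okazaki fragments, rose by 1.69 ± 0.17 (adjusted p = 2.1e-06), from 7.72 and 8.44 to 25.9 and 26.5 CPM. PCNA, the sliding clamp that binds DNMT1, rose by 0.79 ± 0.13 (adjusted p = 0.000238). With R1881 as reference, 5 of the 9 were called higher with namoline and 5 with TCE-5002, beside 3318 and 3514 of 17702 genes. Among them were HELLS and CDCA7, a chromatin remodeller and its partner. Nothing is read from these counts, since the set was chosen with these contrasts in view. The count of 6 was 3 without either combination library or R1881 replicate 1, and 2 without R1881 replicate 2.

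Of the other DNMT family genes, TRDMT1, which methylates tRNA, was tested and DNMT3L was too low. TRDMT1 fell by 0.90 ± 0.20 in C4-2 with the combination (adjusted p = 0.00156) and rose by 0.71 ± 0.16 in the libraries labelled LNCaP (adjusted p = 0.000285). Among 9 further methyl-CpG readers in C4-2, 2 rose and 2 fell, beside 24.8% of all genes called higher and 25.6% lower. ZBTB38 fell by 1.75 ± 0.14 (adjusted p = 3e-07) and MBD3, the NuRD relative of MBD2, by 0.90 ± 0.21 (adjusted p = 0.00216). MBD1 rose by 0.53 ± 0.11 and ZBTB4 by 0.34 ± 0.13. Of 13 NuRD subunits, 2 rose and 5 fell, which over both directions is near the 50.3% called among all genes. MTA2 rose by 0.58 ± 0.11 and GATAD2B by 0.56 ± 0.10, whereas CDK2AP1 fell by 0.97 ± 0.12 and CHD3 by 0.57 ± 0.12. Leaving out any of the 4 libraries compared left 1 reader higher and 2 or 3 NuRD subunits lower, and GC correction gave 4 readers and 4 NuRD subunits higher.

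The demethylation partners of the TET enzymes moved in both directions in C4-2 with the combination, with 6 of 16 tested genes higher and 4 lower (median 0.01). Of all genes, 24.8% were called higher and 25.6% lower. GADD45B and GADD45A, stress genes that have been linked to active demethylation, rose by 3.36 ± 0.17 (adjusted p = 3.7e-09) and 2.93 ± 0.17 (adjusted p = 1.4e-08). GADD45A went from 55.5 and 51.05 CPM to 396 and 423 CPM. IDH1, which makes the TET cofactor α-ketoglutarate, fell by 1.08 ± 0.12 (adjusted p = 7.9e-06), and the glycosylase NEIL1 by 0.99 ± 0.15. In the methyl donor cycle 1 of 17 genes rose and 7 fell (median -0.24). Both directions together were near the 50.3% of all genes called, but the calls were mostly lower. AHCYL1 rose by 1.07 ± 0.12, whereas MAT2A, which makes S-adenosylmethionine, fell by 1.11 ± 0.11. With GC correction 3 genes of this list rose.

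Per length of exon the order of the members differed between the lines. In C4-2 with R1881, MBD2 (16.1 CPM per kb) and DNMT1 (9.43) led, and UHRF1 (0.315) and TET1 (0.198) were last. No neighbours in that order overlapped between replicates. In the libraries labelled LNCaP with R1881, DNMT1 (29.4 CPM per kb) and UHRF1 (18.7) led and TET2 (1.52) was last, with DNMT3B, MBD2 and TET1 overlapping in turn. UHRF1 per DNMT1 transcript, as a ratio of CPM per kb, was 0.0344 and 0.0324 in C4-2 with R1881, 0.264 and 0.283 with namoline, 0.154 and 0.168 with TCE-5002 and 0.104 and 0.110 with the combination. In the LNCaP-labelled samples it was 0.700 and 0.575 with R1881 and 0.377 and 0.311 with the combination. The ratio therefore fell with the combination there and rose in C4-2.

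With R1881 alone 7 of the 8 members tested differed between C4-2 and the libraries labelled LNCaP. UHRF1, given as a description because the C4-2 libraries are those used by the rule, was at 1.76% of the other level in C4-2 (-5.83 ± 0.17 on the log2 scale). TET1 was lower by -4.53 ± 0.18 (adjusted p = 9.7e-17), at 2.20 and 1.47 CPM against 40.8 and 49.9 CPM. DNMT1 was lower by -1.59 ± 0.09 (adjusted p = 6.8e-14) and DNMT3B by -1.16 ± 0.13 (adjusted p = 1.2e-08). TET3 was lower by -0.65 ± 0.09 (adjusted p = 1e-06). MBD2 (1.59 ± 0.10, adjusted p = 7.4e-13), TET2 (1.30 ± 0.10, adjusted p = 3.8e-11) and DNMT3A (0.56 ± 0.10, adjusted p = 1.6e-05) were higher in C4-2. UHRF2 stood at 68.7 and 59.9 CPM against 68.5 and 61.6 CPM, with a difference of 0.04 ± 0.09 (adjusted p = 0.687). The 7 calls of 8 stand beside 76.8% of 19763 genes called, and 2-fold calls were 5 of 8 beside 50.5%.

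The lists around the members moved with the line as well. All 24 G1/S genes were lower in C4-2 (median -3.23), as were 10 of 12 G2/M genes (median -1.13) and 7 of 9 maintenance partners (median -2.28). Of 19763 genes, 7710 were called lower and 7473 higher in this contrast, a background for every list count here. Of 16 tested genes whose promoters are often methylated in prostate cancer, 13 were lower and 1 higher. GSTP1, a glutathione transferase, was at 0.05 and 0.19 CPM in C4-2 with R1881 and at 62.8 and 72.7 CPM in the libraries labelled LNCaP. It stayed between 0 and 0.12 CPM in the C4-2 libraries with any inhibitor. TIMP3, a metalloproteinase inhibitor, was at 0.19 and 0.06 CPM in C4-2 and at 49.3 and 51.9 CPM in the others with R1881. No methylation of DNA was measured in these libraries.

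**Figure D4:**
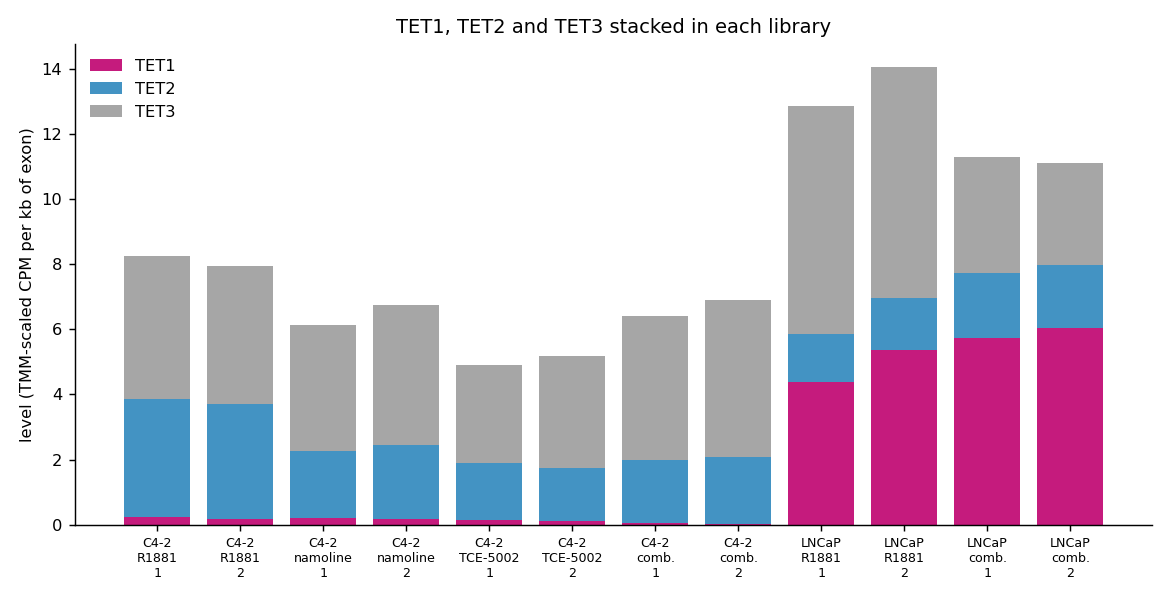
TET1, TET2 and TET3 stacked in each library as TMM-scaled CPM per kb of exon. TET1 makes up between 0.48% and 3.09% of the sum in the C4-2 libraries and between 34.2% and 54.3% in those labelled LNCaP.

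The make-up of the TET transcripts differed in the same way. TET1 made up 2.87% and 1.99% of the summed TET level in C4-2 with R1881, and 1.03% and 0.48% with the combination. Among LNCaP-labelled libraries it made up 34.2% and 38.2% with R1881 and 50.8% and 54.3% with the combination. TET2 went from 43.9% and 44.7% of the sum in C4-2 with R1881 to 29.8% with the combination in each replicate. TET3 took 53.2% and 53.3% in C4-2 with R1881 and between 61.6% and 69.8% with any inhibitor.

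The combination changed in LNCaP-labelled cells 6 of 9 members, beside 56.2% of 17565 genes called. TET3 fell by 1.01 ± 0.11 (adjusted p = 3.5e-09), from 86.1 and 87.1 CPM to 44.0 and 38.5 CPM, and UHRF1 fell by 0.51 ± 0.12 (adjusted p = 0.00043). DNMT1 rose by 0.37 ± 0.11 (adjusted p = 0.00344), from 280 and 297 CPM to 372 and 344 CPM. TET2 (0.42 ± 0.13, adjusted p = 0.00536), TET1 (0.33 ± 0.12, adjusted p = 0.0182) and UHRF2 (0.31 ± 0.11, adjusted p = 0.0144) rose as well. DNMT3A, DNMT3B and MBD2, at 0.11, 0.19 and 0.22, did not pass. Without the library whose column lacks TCE-5002, the same 6 members were called, with UHRF1 at -0.73 ± 0.12 and TET3 at -1.12 ± 0.12. The calls of DNMT1, TET1 and TET2 were lost without R1881 replicate 1, which left 3 calls, and those of UHRF2, TET1 and TET2 were lost with a correction for GC content (adjusted p = 0.127, 0.325 and 0.0606). The call of UHRF2 was also lost without R1881 replicate 2 (adjusted p = 0.207) and without combination replicate 2 (adjusted p = 0.0785).

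Among all genes 28% were called higher and 28.2% lower in this contrast. In the lists around the members, 11 of 24 G1/S genes rose and 5 fell (median 0.19), and 6 of 9 maintenance partners rose and none fell (median 0.34). MCM6, a helicase subunit, rose by 1.19 ± 0.11 and CDC45 by 0.83 ± 0.11, whereas CCNE1, which encodes cyclin E1, fell by 1.74 ± 0.16 and RRM2, a ribonucleotide reductase subunit, by 0.90 ± 0.10. CDCA7 rose by 1.54 ± 0.11, from 77.1 and 74.8 CPM to 188 and 236 CPM, and HELLS by 0.86 ± 0.10. Thus UHRF1 went down while 6 of its tested partners went up. The G2/M genes gave 5 higher and 3 lower (median 0.19), among them BUB1 at 0.85 ± 0.11 and MKI67 at -0.79 ± 0.12, and 3 rather than 5 were higher without R1881 replicate 1. Of the methyl-CpG readers none rose and 6 of 9 fell, among them MBD3 by 1.02 ± 0.11. MAT2A fell by 1.78 ± 0.11 (adjusted p = 3.2e-14) in a methyl donor list with 9 genes higher and 3 lower. Of the demethylation partners 8 of 17 rose and 5 fell (median 0.23). TDG, the glycosylase that excises oxidised methylcytosine, rose by 0.83 ± 0.11 and OGT by 0.85 ± 0.11. GADD45B, which rose in C4-2, fell here by 1.29 ± 0.17 (adjusted p = 1.2e-07). NEIL1 fell by 0.34 ± 0.14, a value that changed sign with GC correction.

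Tested directly, the combination's effect differed between the lines for 6 of 8 members, beside 47.6% of 19763 genes. In a fit of both lines together, the effect in C4-2 minus that in the libraries labelled LNCaP was taken. It was 1.04 ± 0.13 for TET3 (adjusted p = 8e-07) and 0.64 ± 0.13 for UHRF2 (adjusted p = 0.000321). TET3 itself stood at 0.08 in C4-2, not called, and at -1.01 in the libraries labelled LNCaP. The difference was negative for TET1 (-2.38 ± 0.40, adjusted p = 2.9e-05) and TET2 (-1.35 ± 0.15, adjusted p = 6e-08). It was also negative for DNMT3B (-0.71 ± 0.18, adjusted p = 0.00267) and DNMT1 (-0.67 ± 0.12, adjusted p = 8.5e-05). DNMT3A (-0.10 ± 0.14, adjusted p = 0.591) and MBD2 (-0.28 ± 0.14, adjusted p = 0.117) did not pass. The median of all genes in this contrast was -0.10, and the same 6 members were called without the library whose column lacks TCE-5002. The difference of UHRF1, described only, was 1.88 ± 0.27.

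**Figure D5:**
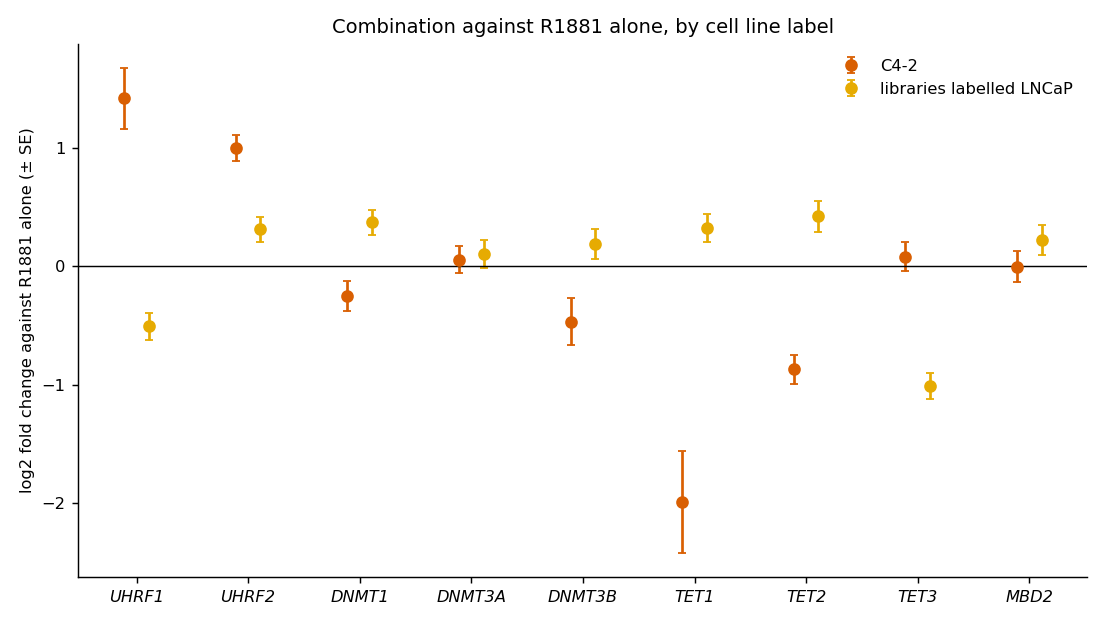
Log2 fold change of the combination against R1881 alone (± SE) for the 9 genes in either line (LNCaP by label). UHRF1 stands at 1.42 in C4-2 and -0.51 in the others, TET1 at -1.99 and 0.33, and TET3 at 0.08 and -1.01.

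Germline genes, whose promoters are a known target of DNA methylation in somatic cells, showed no common direction. In C4-2 with the combination 2 of 9 tested genes rose and 3 fell, with MAGEA3 higher by 0.57 ± 0.11 and MAGEA1 and MAGEA10 lower by 0.63 ± 0.11 and 0.60 ± 0.11. In the libraries labelled LNCaP 1 of 11 rose, TEX15 by 0.64 ± 0.16, and 3 fell, among them TEX14 by 2.34 ± 0.20. These germline counts moved by 1 or 2 genes when a library was left out, among them 1 gene lower in place of 3 without LNCaP R1881 replicate 1. Of 18 listed genes often methylated in prostate cancer, 8 were high enough to be tested in C4-2, where none rose and 3 fell. In the libraries labelled LNCaP 15 were tested, of which 3 rose and 7 fell (4 fell by DESeq2). TIMP3 rose there by 0.45 ± 0.11 and GSTP1 by 0.29 ± 0.11, a call for GSTP1 that was lost without the library whose column lacks TCE-5002. SFRP1, a secreted antagonist of Wnt signalling, fell by 0.99 ± 0.13.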

How the data were processed

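Per the labels and methods, the authors trimmed paired reads, aligned them with STAR and counted fragments per gene without strand in featureCounts 1.5.0-p1 on Ensembl release 83. The deposited counts, 1 table per library, were used unscaled. Genes were named from a table of identifiers, and 41209 of 60675 had a symbol. Only DNMT1 shared exon bases with another gene (69 bases with S1PR2). Tests were edgeR 4.0.16 quasi-likelihood fits under R 4.3.3 (filterByExpr, TMM, Benjamini-Hochberg over all genes tested). Fits held the 8 C4-2 libraries or the 4 libraries labelled LNCaP. Contrasts of lines were fitted on the 8 libraries of both lines with R1881 alone or the combination. Errors of fold changes were the absolute log2 value divided by the root of F. Scripts were tested on simulated counts. The members and the lists of genes were chosen with earlier results of these data known. Named were all 9 members, up to 2 rising and 2 falling called genes of each list with 10 CPM or more on the higher side, and the 5 genes most like UHRF1. Some genes that this rule names are not reported here. Replicates are biological per the methods, and no library was left out. Alternatives were DESeq2 1.42.0, RLE scaling, no filter, GC correction, the replicate number as block, a fit on the 4 libraries compared and leaving out each library.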

Additional observations from a re-analysis of the deposited data

Results flagged for a closer look

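The combination's effect differed between C4-2 and the libraries labelled LNCaP for 6 of 8 members tested, by a test of the difference itself (edgeR quasi-likelihood, Benjamini-Hochberg over all genes). On the log2 scale the effect in C4-2 exceeded the other by 1.04 for TET3 and 0.64 for UHRF2. TET3 itself stood at 0.08 in C4-2, not called, and at -1.01 in the libraries labelled LNCaP. The effect in C4-2 was smaller by that measure for DNMT1 (-0.67), DNMT3B (-0.71), TET2 (-1.35) and TET1 (-2.38). TET1 and TET2 fell in C4-2 (by 1.99 and 0.87) and were called higher in the libraries labelled LNCaP (0.33 and 0.42), and those rises were lost with GC correction (adjusted p = 0.325 and 0.0606), with GC correction and block, and without R1881 replicate 1 (adjusted p = 0.413 and 0.130). TET1 in C4-2 rested on 11 and 5 counts with the combination. The marker levels differ between the lines, and their part in these differences was not tested.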

How the results depend on the processing

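Over 746 tested values of members under the alternatives, 670 kept their direction and their side of the threshold, 32 lost a call, 27 gained a call and 17 changed sign. The number of members called in C4-2 with the combination was 5 rather than 3 when only the 4 libraries compared were fitted. Between namoline and TCE-5002 it was 1 rather than 2 under RLE scaling, no filter, DESeq2 and the 4-library fit. Other counts stayed within 1.5 times under each alternative that left out no replicate. Leaving out a library in turn gave 3 members called in C4-2 with the combination, 3 to 6 in the libraries labelled LNCaP, 7 at baseline, 6 to 7 for the difference between lines, 0 to 3 for namoline against TCE-5002 (edgeR, with 2 at an unadjusted p under 0.05 where 0 were called), 6 to 7 for the interaction, 4 to 6 for the combination against namoline and 3 to 6 against TCE-5002. UHRF1 against R1881 then ranged from 3.86 to 4.27 with namoline and from 2.49 to 2.82 with TCE-5002.

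The cause of the sign changes was not tested. With all libraries NEIL1 stood at -0.34 and was called (adjusted p = 0.0347). DNMT3B stood at -0.33 for the combination against namoline and -0.23 between the inhibitors, and none of the members below was called. MBD2 in C4-2 with the combination went to 0.0291 under RLE scaling and under DESeq2, 0.00563 with no filter, 0.0780 with GC correction and 0.0789 with GC correction and block, and ranged from -0.0168 to 0.00650 with a library left out. UHRF2 at baseline went to -0.0105 under RLE scaling and -0.0109 under DESeq2, and ranged from -0.0620 to 0.139 with a library left out. NEIL1 in the libraries labelled LNCaP went to 0.0468 with GC correction and 0.0501 with GC correction and block. With a library left out, DNMT3A ranged from -0.00952 to 0.212 in the libraries labelled LNCaP and from -0.211 to 0.0423 for the difference between lines. DNMT3B ranged from -0.602 to 0.0358 between the inhibitors and from -0.595 to 0.0419 for the combination against namoline, and MBD2 from -0.339 to 0.0449 between the inhibitors.

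No clear pairing by replicate number was seen, as deviations of same-numbered libraries correlated from -0.098 to 0.103. The highest value was between TCE-5002 and namoline in C4-2. There the replicate number as a block took genes called higher from 1577 to 2118 and lower from 1638 to 2229. In the libraries labelled LNCaP they went from 4919 to 4571 and from 4958 to 4590. Whether same-numbered C4-2 libraries share an effect was not tested. With the replicate number as a block, DNMT3B was called in C4-2 with the combination (-0.47, adjusted p = 0.0367), TET3 between the inhibitors and MBD2 against TCE-5002. At 5 counts, as for TET1 in a C4-2 library, depth limits the precision of the fold. Where no gene of a list was called in a direction by edgeR, DESeq2 called 0 as well, and at an unadjusted p under 0.05 there were 0 genes except 1 maintenance partner lower in C4-2 with the combination.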
